A study of Homo sapiens with 4 samples.

Results

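The borders described here are positions where a chromatin domain began or ended in 3 of 4 Hi-C libraries and where shHNRNPU replicate 2 had no domain start or end nearby. They were chosen by the domain positions of all 4 libraries. A border was a unique domain start or end on the 22 autosomes. A border of shLUC replicate 1 was taken when it had a border within 40 kb in shLUC replicate 2 and in shHNRNPU replicate 1, and none within 120 kb in shHNRNPU replicate 2. Of 4652 autosomal borders in shLUC replicate 1, 2544 were shared by the other 2 of these 3 libraries, and 420 of the shared borders were missing in shHNRNPU replicate 2.

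The libraries came from H1 hPSCs, an established human embryonic stem cell line, grown in mTeSR1 on Matrigel. Both groups carried a virally delivered shRNA, directed against HNRNPU (shHNRNPU, 2 libraries) or against luciferase (shLUC, 2 libraries, the control), and both were selected with puromycin. Chromatin was fixed with formaldehyde and cut with HindIII. Nothing in the labels says whether the 2 libraries of a group came from separate cultures, all libraries came from a single cell line, and no measure of HNRNPU RNA or protein was among the files.

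Topological domains are stretches of a chromosome whose sequences contact each other more often than they contact the neighbouring stretch. Many borders between them form where cohesin, a ring-shaped complex that extrudes loops of DNA, is halted by the zinc finger protein CTCF bound to its motif, and many lie at promoters of active genes. HNRNPU, also called SAF-A, is an abundant nuclear protein that binds RNA and DNA and is a component of the nuclear matrix.

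The sequence at the borders themselves was not analysed here, as no genome sequence was used, and their positions are known to 40 kb only. RefSeq promoters beside the borders give a view of the DNA around them. A core shared with the CTCF motif (CC, any 3 letters, AG, any 2 letters, GGC) was searched on both strands in the 300 bases around each annotated gene start, with no other motif searched. It was found in 106 of 709 promoters within 40 kb of a missing border (15.0%, 95% Wilson interval 12.5% to 17.8%). Within 40 kb of a border kept in all 4 libraries it was found in 285 of 2343 (12.2%, 10.9% to 13.5%). The intervals of these sets overlap. Among all 33558 autosomal promoters, 3564 held it (10.6%). Alternative starts of a gene and neighbouring genes on opposite strands can share a match, which is then counted more than once. The promoters are therefore not independent, and the intervals do not allow for this. The median GC content of these 3 sets of promoters was 63.0%, 59.3% and 58.7%, in that order, and its part in the difference was not tested. The 5 stretches below (100 bases each, GRCh38.p14, written along the strand of the gene) are shown because they lie at borders described further on. They were picked after the values were seen, and capitals mark the match on either strand.
GAREM2, plus strand, chr2:26172838-26172937: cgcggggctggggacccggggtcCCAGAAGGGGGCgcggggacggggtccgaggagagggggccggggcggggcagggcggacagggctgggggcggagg
CIMIP2C, plus strand, chr2:26562408-26562507: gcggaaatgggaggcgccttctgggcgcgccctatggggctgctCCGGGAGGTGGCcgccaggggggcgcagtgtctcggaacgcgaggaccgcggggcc
SS18L2, plus strand, chr3:42581740-42581839: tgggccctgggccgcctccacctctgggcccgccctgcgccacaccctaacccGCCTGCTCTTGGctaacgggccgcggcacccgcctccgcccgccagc
PLXNA1, plus strand, chr3:126982940-126983039: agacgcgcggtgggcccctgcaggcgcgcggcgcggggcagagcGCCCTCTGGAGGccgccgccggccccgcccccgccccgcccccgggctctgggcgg
GNAS, plus strand, chr20:58852772-58852871: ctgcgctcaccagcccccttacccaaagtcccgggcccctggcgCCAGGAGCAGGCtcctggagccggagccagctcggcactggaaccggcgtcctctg
The starts behind these promoters lay 13.1 kb (GAREM2), 2.59 kb (CIMIP2C), 21.8 kb (SS18L2), 23.1 kb (PLXNA1) and 27.0 kb (GNAS, which has several annotated starts) from a missing border. A match is a description of letters in this window and was not tested as a binding site.

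The 420 missing borders were 16.5% of the 2544 borders shared by the other 3 libraries (95% Wilson interval 15.1% to 18.0%). The same rule with another library as the one that lacks the border gave 110 of 2164 (5.08%) for shLUC replicate 2, 129 of 2170 (5.94%) for shHNRNPU replicate 1 and, starting from the borders of shLUC replicate 2, 106 of 2154 (4.92%) for shLUC replicate 1. Borders were thus missing in 1 library alone about as often in shHNRNPU replicate 1 as in either control, and more often in shHNRNPU replicate 2. The bases are not the same, since the 3 lower shares count only borders that shHNRNPU replicate 2 also held. Autosomal borders numbered 4652 (replicate 1) and 4650 (replicate 2) in shLUC, then 4513 (replicate 1) and 3956 (replicate 2) in shHNRNPU, so the library that lacked these borders had the fewest borders in all (85.1% of the shLUC mean). Its median autosomal domain was 640 kb long, against 560, 560 and 600 kb in shLUC replicates 1 and 2 and shHNRNPU replicate 1. A difference shown by 1 of 2 shHNRNPU libraries cannot be told apart from a property of that library. Sequencing depth is unknown, intervals cover counting error only, and no test was run, because the rule used all 4 libraries.

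Most shared borders were close to a border of shHNRNPU replicate 2. Of the 2544, 1156 lay at the same position and 746 lay 40 kb away, and these 1902 are called kept borders. Another 222 lay 80 or 120 kb away and belong to neither set. Just outside the threshold, 61 shared borders lay 120 kb from the nearest shHNRNPU replicate 2 border, and just inside it 49 missing borders lay 160 kb away.

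From the missing borders to the nearest border of shHNRNPU replicate 2, the distance had a median of 480 kb and quartiles of 280 and 640 kb. For 185 of the 420 (44.0%) it was 500 kb or more, and for 43 it was over 1 Mb, with a maximum of 2200 kb. Many of these positions therefore lay deep inside a domain of shHNRNPU replicate 2. By the rule, none could lie within 120 kb of a border of that library, so slightly shifted borders were left out beforehand.

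**Figure D1:**
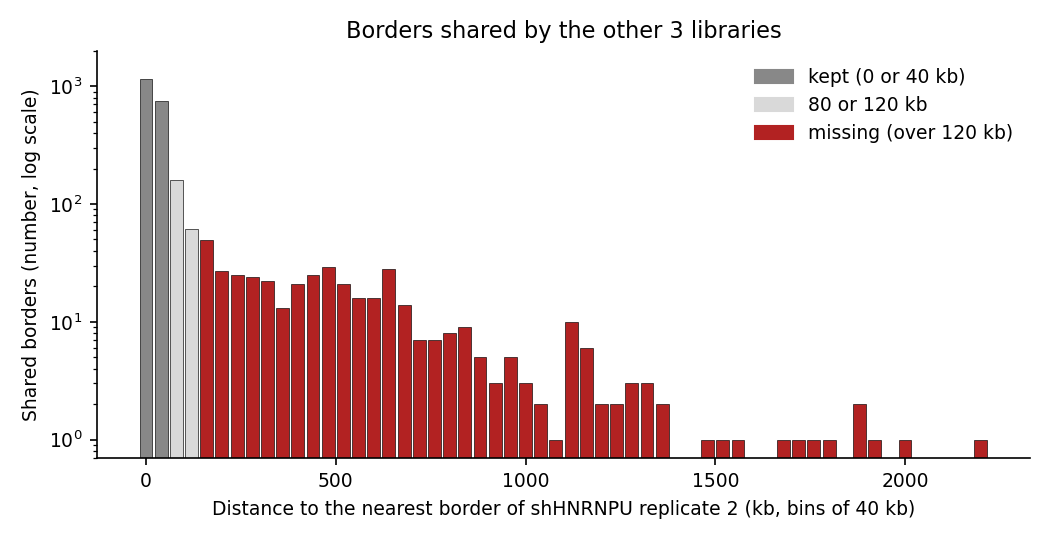
Number of borders shared by shLUC replicates 1 and 2 and shHNRNPU replicate 1 by their distance in kb to the nearest border of shHNRNPU replicate 2. The missing borders begin at 160 kb by the rule, and 185 of 420 lie 500 kb or more away.

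Of the 420 positions, 417 fell inside a domain of shHNRNPU replicate 2, 0 fell in a boundary region and 3 fell in a gap. The 3 in gaps were at 1200000 on chromosome 1, 65640000 on chromosome 9 and 7720000 on chromosome 21, each 160 kb from the nearest border. A boundary region is an interval between domains that the authors listed separately, and a gap is an interval in their list of gaps. Between domains, a position counts as missing only if it is over 120 kb from the domain on each side. The 0 is thus in part set by the rule.

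In the 3 libraries that had the border, the domains on either side were of ordinary length. The median flanking domain at the missing borders was 520 kb in both shLUC libraries and 560 kb in shHNRNPU replicate 1. Left and right flanks had the same median in shLUC replicate 1 (520 kb each), with the shorter flank at a median of 400 kb and the longer at 720 kb. At kept borders the median flanking domain of shLUC replicate 1 was 600 kb (quartiles 440 and 880 kb), against 520 kb (320 and 800 kb) at missing borders. The missing borders thus sat beside somewhat shorter domains than the kept ones, with wide overlap.

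The domain of shHNRNPU replicate 2 that covered a missing border was longer than the pair of domains it replaced in most cases. Its median length over 417 borders was 1520 kb (95% interval 1360 to 1600 kb, quartiles 1040 and 2360 kb, maximum 8240 kb), while the lengths of the 2 flanking shLUC replicate 1 domains added up to a median of 1160 kb. A domain that covered several missing borders entered once per border, which the interval does not allow for. Counted once each, the 342 covering domains had a median of 1340 kb (quartiles 960 and 2080 kb). Per border, the covering domain was a median of 1.16 times the summed flanks. It was shorter than the sum at 126 borders and over 2 times the sum at 104. In the reverse cases, the domain covering a border missing in 1 library had a median of 1160 kb for shLUC replicate 2, 1040 kb for shHNRNPU replicate 1 and 1120 kb for shLUC replicate 1.

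Long covering domains were more frequent at these borders. A domain of 2 Mb or more covered 143 of 417 missing borders (34.3%) in shHNRNPU replicate 2. In the reverse cases such a domain covered 13 borders (12.6%) in shLUC replicate 2, 17 (13.9%) in shHNRNPU replicate 1 and 10 (10.3%) in shLUC replicate 1. Of all 204 autosomal domains of 2 Mb or more in shHNRNPU replicate 2, 96 (47.1%) held at least 1 missing border. Since a long domain holds more positions, the share of long domains is in part set by how the borders were selected.

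**Figure D2:**
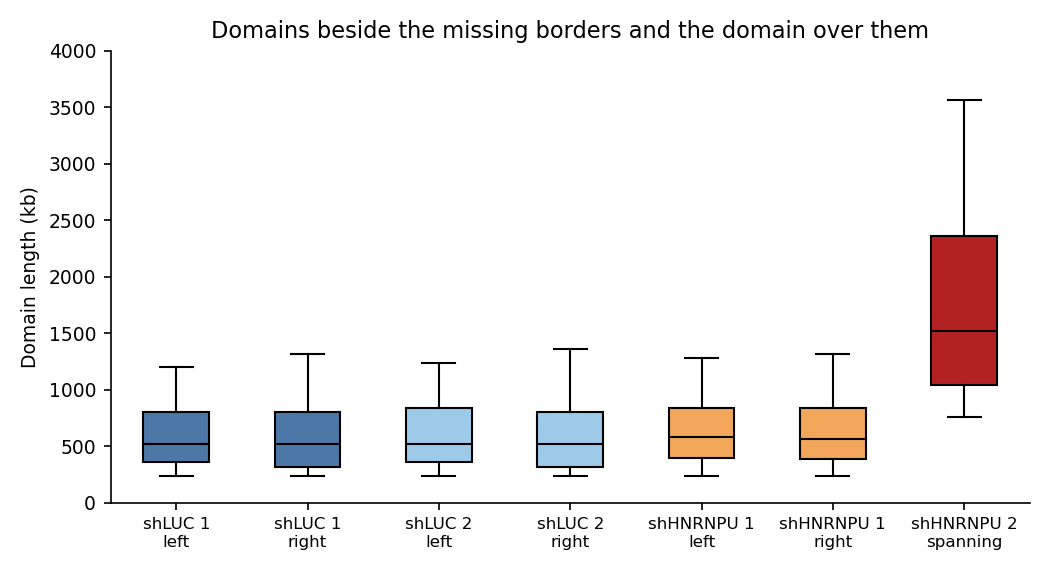
Length in kb of the domains on either side of the missing borders in the 3 libraries that had them, and of the shHNRNPU replicate 2 domain that covers the position. The flanking domains have medians of 520, 520 and 560 kb and the covering domain has a median of 1520 kb.

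Simple fusion, in which the covering domain began where the left flank began and ended where the right flank ended (both within 40 kb), was seen at 63 of the 420 borders (15.0%, 95% Wilson interval 11.9% to 18.7%). At 194 borders 1 outer end matched, and at 163 neither did. Exact joins made up 23.6%, 17.8% and 24.5% of the borders missing only in shLUC replicate 2, shHNRNPU replicate 1 and shLUC replicate 1. The share in shHNRNPU replicate 2 was the lowest of the 4. The other shares rest on 26, 23 and 26 joins, in the same order, and no intervals were computed for them. Borders on either side of a gap can each count as a join, so the difference in shares was not tested. At most of the 420 missing borders, at least 1 outer end of the covering domain did not match the shLUC replicate 1 flanks. Flanks of the other libraries were not used for this match. An outer end called only in shLUC replicate 1 therefore also counts as unmatched.

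Among genes on the lists given further on, 3 lay within 120 kb of an exact join. At WNT3A, a secreted Wnt ligand, the border stood at 228000000 on chromosome 1 in all 3 other libraries, 6.998 kb from the gene start. Its flanks of 520 and 320 kb lay inside a single domain of shHNRNPU replicate 2 (chr1:227440001-228320000, 880 kb). At ISL1, a LIM homeodomain factor of heart and motor neuron precursors, the border at 51400000 on chromosome 5 was again at the same bin in all 3 libraries, with flanks of 480 and 1280 kb joined in chr5:50960001-52680000 (1720 kb). At GNAS, an imprinted gene that encodes a G protein subunit, the border was at 58880000 on chromosome 20 in shLUC replicate 1 and shHNRNPU replicate 1 and at 58920000 in shLUC replicate 2. Both flanks measured 640 kb and the joined domain was chr20:58200001-59520000 (1320 kb). Each of the lists of germ layer regulators and of signalling ligands had 1 gene near a missing border (4.55% and 4.76% of the list), against 5.66% of all genes.

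Some missing borders shared a covering domain. The 417 positions lay in 342 domains of shHNRNPU replicate 2, which are 10.5% of its 3261 autosomal domains and 21.3% of its autosomal domain sequence (573.08 Mb). One missing border lay in each of 282 domains, while 49 domains held 2, 7 held 3 and 4 held 4. Together these last 60 domains held 135 missing borders. Neighbours within 120 kb count as separate borders here, and joining them left 397 sites.

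The 342 domains held 800 borders of shLUC replicate 1, 779 of shLUC replicate 2 and 741 of shHNRNPU replicate 1 in their interior. The median was 2 inner borders per domain in each of these libraries. Both edges of a boundary region or gap count as borders, so 2 inner borders can mark a single division. Domains with a single inner border numbered 130, 138 and 156 in the 3 libraries.

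The missing border farthest from any shHNRNPU replicate 2 border lay at 6640000 on chromosome 17, among borders more than 120 kb from gaps. It was at this bin in shLUC replicate 1 and shHNRNPU replicate 1 and at 6600000 in shLUC replicate 2, and the nearest shHNRNPU replicate 2 border was 2200 kb away. The covering domain ran from 600001 to 8840000 (8.24 Mb), in which shLUC replicates 1 and 2 and shHNRNPU replicate 1 had 9, 6 and 9 inner borders. KIAA0753, a protein of centriolar satellites, spanned the border with its start 0.711 kb from it, and TXNDC17, a thioredoxin-like protein, started 1.06 kb from it. MED31, a subunit of the Mediator complex that links transcription factors to RNA polymerase II, started 11.6 kb away.

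On chromosome 20, the border at 36520000 lay 1920 kb from the nearest shHNRNPU replicate 2 border, inside a 4.32 Mb domain (chr20:34120001-38440000). DLGAP4, a scaffold protein of the postsynaptic density, spanned the border, and TGIF2, a homeodomain repressor of TGF-beta signalling, started 53.5 kb from it. A second border of the same chromosome, at 56360000, lay 1680 kb away inside a 3.52 Mb domain, beside FAM210B (start 1.03 kb away) and CSTF1, a subunit of the complex that cleaves mRNA 3′ ends (32.4 kb).

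On chromosome 2, 2 of these borders shared the domain chr2:22360001-26800000. The border at 24920000 lay 1880 kb from the nearest shHNRNPU replicate 2 border and 0.237 kb from the start of ADCY3, an adenylate cyclase of primary cilia. The border at 25240000 lay 1560 kb away within DNMT3A, the de novo DNA methyltransferase, 12.1 kb from its start, and it stood at the same bin in all 3 libraries that had it. Between them lay POMC, the precursor of melanocortin hormones, whose start was 71.4 kb from the second border. The stretch from 24920001 to 25240000 was a domain of its own in both shLUC libraries.

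On chromosome 7, the border at 98880000 was at the same bin in all 3 libraries and 1880 kb from the nearest shHNRNPU replicate 2 border, inside a domain of 5.72 Mb. It lay within TRRAP, near its annotated start at 98878532, a scaffold of histone acetyltransferase complexes. The border at 148240000, 1520 kb away in a 3.6 Mb domain, lay within CNTNAP2, a neurexin-family adhesion protein and a very long gene.

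The remaining 3 of the 10 farthest borders were on chromosomes 19, 1 and 3. At 32600000 on chromosome 19 the border lay 1800 kb away in a 3.72 Mb domain, within ANKRD27, a regulator of endosomal RAB proteins, and 18.8 kb from PDCD5. The border at 146320000 on chromosome 1 lay 1760 kb away in a 4.80 Mb domain, with NOTCH2NLA, one of the human-specific NOTCH2-like genes, 91.0 kb off. At 42560000 on chromosome 3 it lay 1720 kb away in a 3.76 Mb domain, within SEC22C, a protein of vesicle transport, with SS18L2 21.8 kb off. In shLUC replicate 1, all 10 separated directly adjoining domains, and none of the 10 was an exact join.

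**Figure D3:**
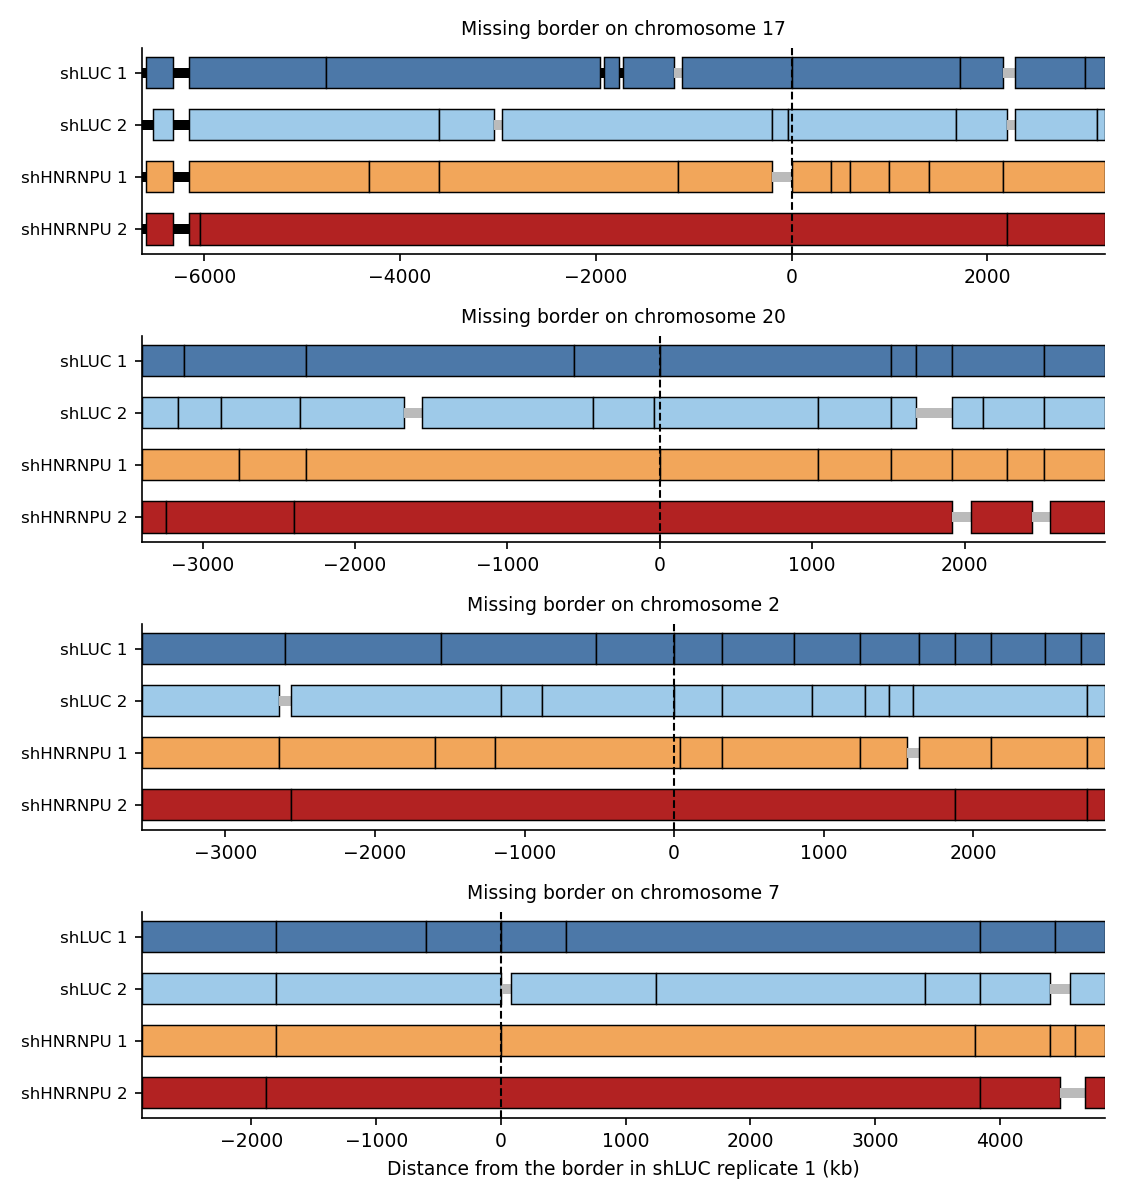
Domains of the 4 libraries around the 4 borders farthest from a shHNRNPU replicate 2 border, on chromosomes 17, 20, 2 and 7, with distance from the missing border in kb on the horizontal axis. Coloured bars are domains, thin grey bars boundary regions and thin black bars gaps. In the other 3 libraries a domain edge lies at the dashed line or within 40 kb of it, while shHNRNPU replicate 2 has a single bar across it, of 8.24, 4.32, 4.44 and 5.72 Mb.

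Of the 4 domains with 4 missing borders, the longest was chr2:107560001-112600000 (5.04 Mb, 34 protein-coding genes). It held 4 missing borders, at 107920000, 108200000, 108720000 and 111760000, and was divided among 6, 7 and 6 domains in shLUC replicates 1 and 2 and shHNRNPU replicate 1. RANBP2, a nucleoporin of the cytoplasmic side of the pore, started 0.518 kb from the third of these borders. The ADCY3 and DNMT3A domain above also held 4 missing borders (36 protein-coding genes), the others being at 26160000, beside GAREM2, and at 26560000, beside CIMIP2C and OTOF, a protein of synaptic vesicle release in hair cells.

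On chromosome 10, chr10:129040001-133080000 (4.04 Mb, 17 protein-coding genes) held 4 missing borders, the last 2 of them at 132240000 and 132320000, near STK32C. On chromosome 3, chr3:125680001-127640000 (1.96 Mb) held 4, at 126120000, 126160000, 126960000 and 127040000. These formed 2 close pairs, each on either side of a gap of shLUC replicate 1, the second pair near PLXNA1, a receptor for semaphorins. The domain chr3:48600001-53200000 (4.60 Mb) held 3 missing borders among 122 protein-coding genes. It was 6, 5 and 4 domains in shLUC replicates 1 and 2 and shHNRNPU replicate 1. Stretches that were 4 to 8 domains in the other 3 libraries were thus a single domain in shHNRNPU replicate 2 at these 5 places.

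Missing borders occurred on all 22 autosomes. On every one of the 22, the percent of shared borders missing was higher in shHNRNPU replicate 2 than in shLUC replicate 2 or shHNRNPU replicate 1. Chromosome 1 had the most in number (37 of 239, 15.5%), followed by chromosome 4 (36 of 187, 19.3%) and chromosome 2 (32 of 206, 15.5%).

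As a percent of shared borders, chromosome 19 was highest (8 of 25, 32.0%, 95% Wilson interval 17.2% to 51.6%) and chromosome 13 lowest (8 of 97, 8.25%, 4.24% to 15.4%). Chromosome 20 had 20 of 70 (28.6%, 19.3% to 40.1%) and chromosome 10 had 29 of 115 (25.2%, 18.2% to 33.9%). On chromosome 20, 0 of 47 shared borders were missing in shLUC replicate 2 and 0 of 47 in shHNRNPU replicate 1. The intervals of these 4 chromosomes were the ones that did not contain 16.5%. The other 18 chromosomes could not be told apart from that share at this number of borders.

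**Figure D4:**
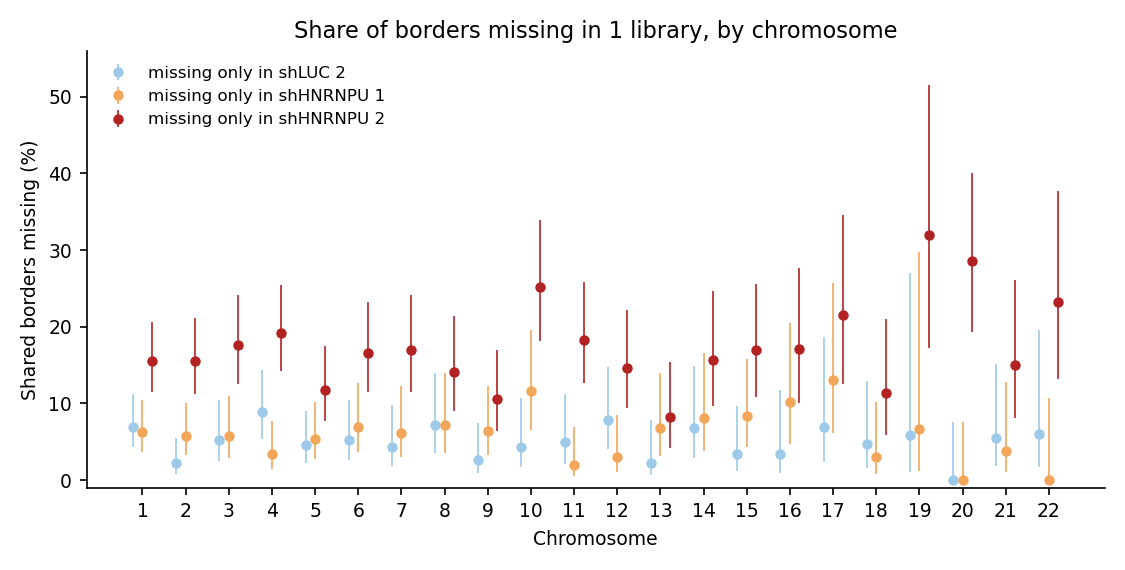
Percent of shared borders missing in shHNRNPU replicate 2 on each autosome, with 95% Wilson intervals, beside the percent missing in shLUC replicate 2 and shHNRNPU replicate 1. Chromosomes 19, 20 and 10 are highest for shHNRNPU replicate 2, and it lies above the other libraries on 22 of 22.

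Missing borders were spread along chromosome arms. Their median distance to the nearer chromosome end was 30.52 Mb (95% interval 26.08 to 34.04 Mb, lowest 0.6 Mb, highest 122.04 Mb), against 34.14 Mb at kept borders. Within 5 Mb of an end lay 37 of the 420 (8.81%) and 163 kept borders (8.57%). The percent of shared borders missing was 17.1% within 5 Mb of an end, 17.7% from 5 to 20 Mb, 16.1% from 20 to 50 Mb and 15.9% beyond. No class of distance from the end stood apart.

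The borders had the usual forms in shLUC replicate 1. At 285 (67.9%) a domain met the next directly, 88 (21.0%) edged a boundary region and 47 (11.2%) edged a gap. Of the shared borders of these forms, 17%, 19.1% and 12.8% were missing. Within 120 kb of a gap, 12.2% of shared borders were missing, against 17.4% farther away, so the missing borders did not gather at gaps.

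Missing borders were placed less exactly than kept ones in the libraries that had them. Both shLUC replicate 2 and shHNRNPU replicate 1 had the border at the very bin of shLUC replicate 1 at 151 of 420 missing borders (36.0%) and at 941 of 1902 kept ones (49.5%). Among shared borders with the same bin in neither, 1 or both of the other libraries, 18.5%, 19.9% and 13.1% were missing in shHNRNPU replicate 2. The corresponding values were 6.32%, 5.88% and 3.87% for borders missing in shLUC replicate 2, and 8.24%, 5.31% and 5.38% for shHNRNPU replicate 1.

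Borders with a short flank went missing more often than borders between long domains. With the shorter flank at 240 to 400 kb, 165 of 723 shared borders (22.8%) were missing, against 155 of 1216 (12.7%) at 440 to 800 kb and 35 of 244 (14.3%) above. With a flank of 200 kb or less the share was 65 of 361 (18.0%). In that class the rule itself limits the number, since beside a flank of up to 120 kb a border counts as missing only if shHNRNPU replicate 2 has no border at the exact position of the flank's far end either. For the classes of up to 200, 240 to 400, 440 to 800 and over 800 kb, the values were 5.77%, 6.81%, 4.35% and 2.88% for borders missing in shLUC replicate 2. They were 11.7%, 6.72%, 4.10% and 4.19% for shHNRNPU replicate 1. Higher shares beside short flanks were thus seen in the other 2 libraries as well.

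More genes lay at the missing borders than at the kept ones. RefSeq protein-coding gene bodies that overlapped the 40 kb on either side numbered 1.67 on average at missing borders, 1.25 at kept borders and 0.997 at all 68939 autosomal bin edges outside gaps. No gene lay there at 74 missing borders (17.6%), at 566 kept borders (29.8%) and at 38.0% of bin edges. Borders missing only in shLUC replicate 2 or only in shHNRNPU replicate 1 had means of 1.36 and 1.37 genes. Of these, 28.2% and 20.9% had no gene. Both sets thus lay between the kept borders and those missing in shHNRNPU replicate 2. The mean was higher at missing than at kept borders on 21 of 22 chromosomes, the exception being chromosome 5 (1.45 against 1.49).

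The percent of shared borders missing in shHNRNPU replicate 2 rose with the number of genes. It was 10.7% with no gene (74 of 690), 15.0% with 1 gene (140 of 934), 21.3% with 2 or 3 genes (168 of 787) and 28.6% with 4 or more (38 of 133). The difference between the last and the first was 17.8 percentage points (95% interval 10.4 to 26.3). For shLUC replicate 2 the same classes gave 5.00%, 4.89%, 5.10% and 7%, and for shHNRNPU replicate 1 they gave 4.32%, 7.38%, 5.91% and 4.30%. Neither of these 2 libraries showed a rise of this size over the 4 classes. Their class with 4 or more genes held 100 and 93 shared borders, of which 7 and 4 were missing. The bases also differ, since these shared borders had to be present in shHNRNPU replicate 2. This is a description with no test, and borders missing only in shLUC replicate 1 were not divided by gene number.

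**Figure D5:**
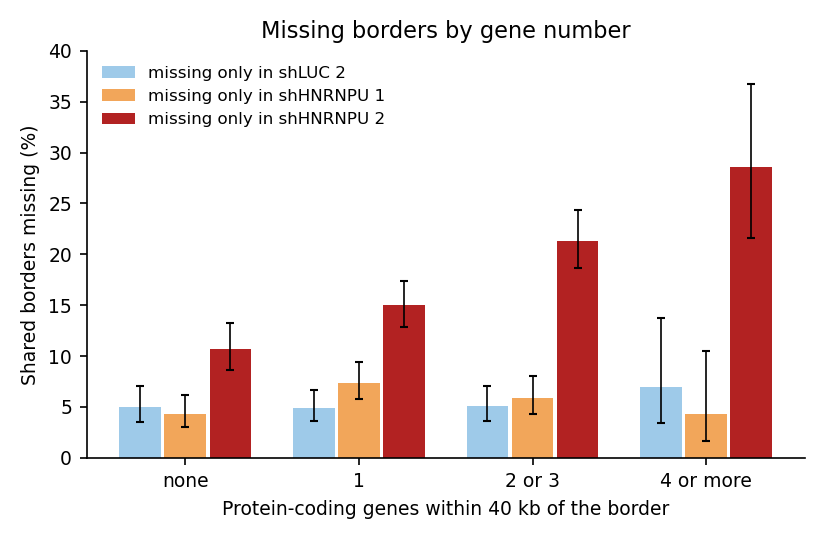
Percent of shared borders missing in shHNRNPU replicate 2, shLUC replicate 2 and shHNRNPU replicate 1 by the number of protein-coding genes within 40 kb, with 95% Wilson intervals. The values for shHNRNPU replicate 2 go from 10.7% with no gene to 28.6% with 4 or more.

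Short flanks and genes occur together, so both were taken at once. Beside a flank of 400 kb or less, 11.6% of shared borders without a gene, 20.1% with 1 gene and 29.1% with 2 or more were missing. Beside longer flanks the values were 10%, 12% and 16.5%. The rise with gene number was present at both lengths and was larger beside short domains. The 342 covering domains held 5468 protein-coding genes (9.54 per Mb), against 6.06 per Mb in the other domains of shHNRNPU replicate 2. Over all its borders, shHNRNPU replicate 2 had a mean of 1.25 genes within 40 kb, against 1.40, 1.40 and 1.38 in shLUC replicates 1 and 2 and shHNRNPU replicate 1.

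Lists of genes gave the following counts of starts within 120 kb of a missing border, among 15101 autosomal protein-coding genes with an annotated start, of which 854 (5.66%) lay so close. Near kept borders lay 2765 of these genes (18.3%). The table of starts had none on chromosome 8, so the 17 missing borders there could add no gene. Of 16 pluripotency factors 0 lay near a missing border and 2 (12.5%) near a kept one. Of 21 HOX genes, which set position along the body axis, 0 lay near a missing border and 18 (85.7%) near a kept one, and neighbouring HOX genes share borders. Histone genes (0 of 67) and protocadherin clusters (0 of 47) were likewise without one. Small lists and clustered genes limit what a count of 0 shows.

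Other lists had a few members there. Germ layer regulators had 1 of 22 (ISL1), signalling ligands and antagonists had 1 of 21 (WNT3A), and proteins of chromatin loops and the nuclear matrix had 1 of 29. The last was CTCF itself, whose start lay 82.5 kb from a border at 67480000 on chromosome 16, covered by a 5040 kb domain. Imprinted genes had 3 of 15, namely GNAS, L3MBTL1, a chromatin-binding MBT protein, and SNRPN, a spliceosomal protein of the Prader-Willi region. This was 20% of the list, against 5.66% of all genes, and 2 of 15 (13.3%) lay near a kept border. The list is small, and the difference was not tested. The SNRPN border, at 25040000 on chromosome 15 in all 3 libraries, lay 83.7 kb from its start inside chr15:23800001-25720000. Zinc finger genes had 16 of 428 (3.74%) and olfactory receptor genes 14 of 313 (4.47%), both below the 5.66% of all genes. Near kept borders lay 9.11% and 13.7% of these lists, also below the 18.3% of all genes. For all shared borders the values were 13.6% and 19.2%, against 26.6%. Both lists thus lay less often near shared borders of any kind, and their lower shares are not particular to missing borders.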

How the data were processed

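For each of the 4 libraries the authors deposited 3 lists of intervals in hg38 (domains, boundary regions and gaps, with chromosome, start and end), at 40 kb steps and without read counts or contact values. The submitters' processing notes name Bowtie2. The contact-matrix normalization, domain caller and depth are not given in the sources used here, and any of them can change which borders are called. The paper named for these data describes another experiment, so no method was taken from it.

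Borders were selected by the rule given above. Positions are counted from 1. The members, gene lists and features were chosen with earlier results of these data known. Borders named are the 10 farthest from a shHNRNPU replicate 2 border and more than 120 kb from gaps, the 5 domains with the most members (ties by length), and members within 120 kb of the start of a listed gene. At each, up to 4 of the nearest gene starts were considered. Genes and promoters come from RefSeq (GRCh38.p14). The promoter table held starts for 15101 of 19126 autosomal protein-coding genes and none on chromosome 8, which the list counts, motif counts and distances to gene starts therefore leave out, so gene bodies were counted at borders. Shares have 95% Wilson intervals and medians intervals from binomial order statistics. The selection code was checked on copies of the shLUC replicate 1 borders from which well separated borders had been removed. This is a check of the code only and says nothing about the borders described here. Alternatives were other matching distances, 1 border per domain, borders away from gaps, chromosomes X and Y, and leaving out each library. Python 3.11.15, numpy 2.4.6, scipy 1.17.1, pandas 2.3.3 and matplotlib 3.10.9 were used.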

Additional observations from a re-analysis of the deposited data

How the results depend on the processing

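Against 420 missing borders (16.5% of shared borders), requiring the same bin in all 3 libraries gave 151 (13.1%), absence within 40 kb gave 642 (25.2%), absence within 200 kb gave 13.5%, matching within 80 kb gave 18.4% and 1 border per domain gave 13.6%. In that last setting only the missing borders were reduced, and all 2544 shared borders stayed as the base. The same holds for its value of the gene difference below. Leaving out each other library in turn gave 658 to 712 borders and 21.0% to 22.3%, since fewer libraries then had to hold the border. The median covering domain (1520 kb) was 1240 kb with absence within 40 kb, 1700 kb with absence within 200 kb and 1340 kb with 1 border per domain, and 1480 to 1520 kb when a library was left out. Exact joins (15.0%) were 10.4% with absence within 40 kb, 25% with outer ends matched within 120 kb, and 14.7% to 16.9% when a library was left out. The median distance to a chromosome end stayed at 27.96 to 33.76 Mb. The difference between borders with 4 or more genes and with none stayed at 13 to 22.6 percentage points in 14 alternatives. Adding X and Y gave 455 of 2667 (17.1%). Without shHNRNPU replicate 2 the rule gives no value. Depth is unknown and the borders of 1 library share its contact matrix and caller. No paired analysis was possible because the rule used all 4 libraries and gives no test.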

Other observations

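Genes for tRNAs and ribosomal proteins, which most cells transcribe heavily, were counted as well. Of 22 shared borders within 40 kb of a tRNA gene, 3 were missing in shHNRNPU replicate 2, and of 7 shared borders within 40 kb of a ribosomal protein gene, 0 were missing. Within 120 kb of a missing border lay the starts of 2 of 59 ribosomal protein genes, RPL22 and RPL29. These numbers are too small to set beside the 16.5% of all shared borders.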
